A study of Camelus dromedarius with 10 samples.

Results

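The genes described here are the muscarinic acetylcholine receptors (CHRM1 to CHRM5) and the histamine receptors (HRH1 to HRH4) of the dromedary camel, in the supraoptic nucleus (SON). They were chosen by name, as the 9 members of these 2 receptor families, and were found in the counts through the Ensembl gene IDs that the study pairs with symbols. The pairing used here gave a symbol to 4316 of the 22444 gene IDs counted, so a gene said to have an ID is one that it paired, and a gene without one may still be among the counts. It paired 5 of the 9, namely CHRM2 (ENSCDRG00005002309), CHRM3 (ENSCDRG00005016235), HRH2 (ENSCDRG00005004042), HRH3 (ENSCDRG00005005077) and HRH4 (ENSCDRG00005017544). CHRM1, CHRM4, CHRM5 and HRH1 were not paired with an ID and were not analysed here.

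RNA was taken from the rostral SON of 1 side of the brain in male dromedary camels. Libraries were stranded and made from total RNA after depletion of ribosomal RNA. The 5 control camels had food and water freely, and the 5 water-deprived (WD) camels had food but no water for 20 days. Libraries are named by group and number, as CON2, CON3, CON4, CON5 and CON13 and as WD6, WD7, WD8, WD9 and WD15.

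Both families are G protein-coupled receptors. Among muscarinic receptors, CHRM1, CHRM3 and CHRM5 couple to Gq, which raises intracellular calcium and activates protein kinase C, and CHRM2 and CHRM4 couple to Gi, which lowers cyclic AMP and opens G protein-gated potassium channels. Among histamine receptors, HRH1 couples to Gq, HRH2 to Gs, which raises cyclic AMP, and HRH3 and HRH4 to Gi. HRH3 is best known as the inhibitory receptor on histaminergic nerve endings, and HRH4 is best known from cells of the immune system. The magnocellular neurones of the SON, which make vasopressin and oxytocin, receive histaminergic fibres from the tuberomammillary nucleus, and both acetylcholine and histamine are known to affect vasopressin release.

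Control libraries held between 1665098 and 7518432 counts, with a median of 4233342, and WD libraries between 4227685 and 8126641, with a median of 5000749. In each library 5 gene IDs took between 27.7% and 76.1% of the counts, and the counts outside them ran from 397495 in CON13 and 1106575 in WD6 to 5872137 in WD9. Levels are CPM, the counts of a gene per 1e+06 counts of its library after TMM normalisation, and 1 count weighed 1.196 CPM in CON13, 0.475 CPM in WD6 and between 0.0864 and 0.237 CPM in the other 8 libraries. The transcripts' lengths were not used, so levels are compared between libraries and not between genes. A lower level in this tissue can mean fewer cells of a type or less RNA per cell, which bulk libraries cannot tell apart.

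CHRM2, the Gi-coupled muscarinic receptor, was lower in every WD library than in any control library. Its level was 2.99 CPM in CON2, 4.97 in CON3, 3.56 in CON4, 4.98 in CON5 and 4.78 in CON13. In WD libraries it was 0 in WD6, 1.79 in WD7, 0.461 in WD8, 1.47 in WD9 and 1.25 in WD15. The groups did not overlap, and the lowest control library lay above the highest WD library. Mean levels were 4.255 ± 0.922 CPM (SD, n = 5) for the control and 0.993 ± 0.740 CPM (SD, n = 5) for the WD group, a ratio of 4.28. These levels rest on few counts, 104 in all control libraries and 40 in all WD libraries. In WD6 the count of 0 allows a level of up to 1.42 CPM (3 counts, counting error only), and in CON13 the level comes from 4 counts.

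The log2 fold change of CHRM2 was -1.90 (SE 0.54, 95% interval -3.04 to -0.76), with an adjusted p of 0.192 by edgeR's quasi-likelihood test over 14432 genes. It therefore did not pass the threshold of 0.05, which 0.499% of the genes tested did. Its unadjusted p by edgeR was 0.00256, and 9.31% of the genes tested had an unadjusted p under 0.05. DESeq2's Wald test gave a log2 fold change of -1.91 (SE 0.53) with an adjusted p of 0.0323, and so called the gene, as it did 1.27% of the genes it gave an adjusted p. The exact permutation test of log2 CPM gave a difference of -2.58 between group means and a two-sided p of 0.00794, the smallest that 252 assignments can give. The difference was -1.82 without WD6, whose count of 0 is placed by the prior count, and -2.02 with a prior count of 2. Levels did not overlap between the groups in 2.62% of the genes tested, and in 1 of the 5 receptor genes, or 1 of the 3 that were tested. CHRM2 passed the filter on low counts through its higher control libraries, so its place among those tested is not independent of this separation.

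CHRM2 was paired with its ID only through the study's list of genes ranked by its own test of WD against control, of which the first 1819 entries were used here. The gene thus entered this description partly because of its p, and its tests are not independent evidence of its direction. The other 4 receptor genes were paired through lists of gene classes that were not ranked by this contrast. The separation of CHRM2 held under the 3 other scalings, most narrowly under library totals, where the lowest control library had 11.5 and the highest WD library 11.1 counts after scaling to a common total. It also held with CON13 and WD6 left out, as it must, because leaving libraries out cannot make separated groups overlap.

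CHRM3, the Gq-coupled muscarinic receptor, did not separate the groups. It had 1.71 CPM in CON2, 0.946 in CON3, 2.29 in CON4, 1.17 in CON5 and 11.96 in CON13. WD libraries had 2.85 CPM in WD6, 1.40 in WD7, 2.00 in WD8, 2.16 in WD9 and 0 in WD15, where the count of 0 allows up to 0.625 CPM. CON13 stood above all other libraries with 10 counts, WD15 stood below them, and the remaining libraries overlapped. Mean levels were 3.62 ± 4.69 CPM (SD, n = 5) for the control and 1.68 ± 1.07 CPM (SD, n = 5) for the WD group, and without CON13 the control mean was 1.53 ± 0.602 CPM (SD, n = 4). CHRM3 did not pass the filter on low counts, and the fit without a filter gave a log2 fold change of -0.75 (SE 0.79, 95% interval -2.38 to 0.88) with an adjusted p of 0.839 by edgeR. The exact permutation test gave a difference of -1.05 in log2 CPM, with a two-sided p of 0.508, and the difference was -0.12 without WD15 and -0.45 without CON13.

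The ratio of CHRM2 to CHRM3 counts within a library needs no scaling between libraries. Transcript lengths were not used, so the ratio is compared between the groups and does not tell which receptor is more abundant. CHRM2 was paired only through the ranked list, so its part in any change was partly selected. Control libraries together held 104 counts of CHRM2 and 50 of CHRM3, and WD libraries 40 and 55. CHRM2 had more counts than CHRM3 in 4 of 5 control libraries, all but CON13, and in 2 of 5 WD libraries, WD7 and WD15. The log2 ratio was 0.77 in CON2, 2.26 in CON3, 0.62 in CON4, 2.02 in CON5 and -1.22 in CON13. In WD libraries it was -3.70 in WD6, 0.33 in WD7, -1.95 in WD8, -0.54 in WD9 and 3.70 in WD15. WD6 had no count of CHRM2 and WD15 none of CHRM3, so both extreme ratios depend on the 0.5 added to each count. The mean was 0.89 ± 1.39 (SD, n = 5) for the control and -0.43 ± 2.77 (SD, n = 5) for the WD group, a difference of -1.32 with an exact permutation p of 0.389 (two-sided). A difference in response between CHRM2 and CHRM3 was therefore not detectable at this depth. With 1 library left out, the difference ran from -2.35 (without WD15, exact permutation p of 0.0635) to -0.50 (without WD6, exact permutation p of 0.722).

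**Figure D1:**
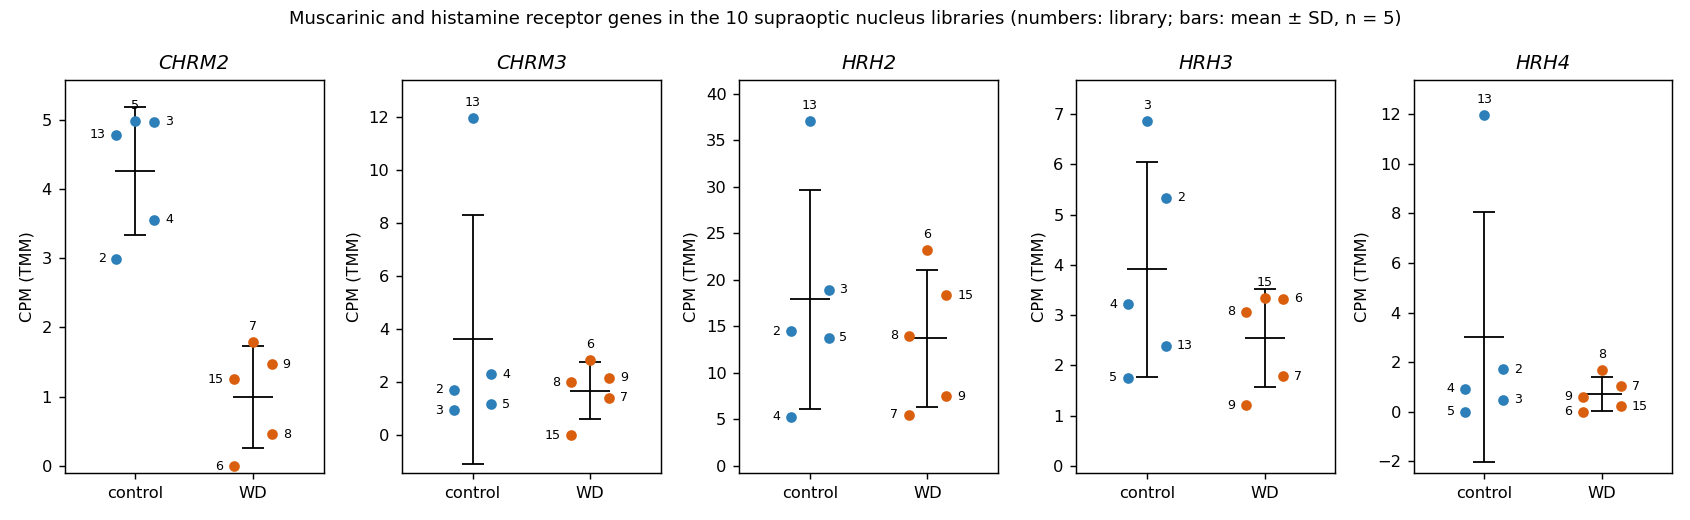
Levels (CPM after TMM normalisation, linear axes with a different range for each gene) of the 5 receptor genes in control (blue) and WD (orange) libraries, each point labelled with its library number, with the mean and SD (n = 5) as black bars. CHRM2 alone separates the groups, with control libraries from 2.99 to 4.98 CPM and WD libraries from 0 to 1.79 CPM, while CON13 stands apart at 11.96 CPM for both CHRM3 and HRH4.

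HRH2, the Gs-coupled histamine receptor, had the most counts of the 5 genes, 319 in control and 358 in WD libraries, and overlapped widely between the groups. Control levels were 14.5 CPM in CON2, 18.9 in CON3, 5.28 in CON4, 13.8 in CON5 and 37.1 in CON13. WD levels were 23.2 CPM in WD6, 5.48 in WD7, 14.0 in WD8, 7.52 in WD9 and 18.3 in WD15. The highest library of each group was its shallowest, CON13 and WD6. Means were 17.9 ± 11.8 CPM (SD, n = 5) and 13.7 ± 7.39 CPM (SD, n = 5), with a log2 fold change of -0.28 (SE 0.43, 95% interval -1.19 to 0.63) and an adjusted p of 0.903 by edgeR. The exact permutation test gave a difference of -0.32 in log2 CPM with a two-sided p of 0.611. The sign of the fold change turned to 0.01 without CON13 and to 0.05 with depth as a covariate, and the fold change was -0.70 with the RNA integrity number (RIN) of each library as a covariate.

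The level of HRH2 followed the depth of the libraries. Over the 10 libraries, log2 CPM of HRH2 and log2 of the counts outside the 5 most counted IDs had a Pearson r of -0.868 (permutation p 0.00027, adjusted 0.00135 over 5 relations) and a Spearman rho of -0.952 (permutation p 9e-05, adjusted 0.00045). Without CON13 and WD6, the libraries farthest from the median depth, r was -0.825. In control libraries the order of the levels was the exact reverse of the order of depth, and among WD libraries WD7 and WD9 alone were out of that order. Of the 14432 genes tested, 0.333% had a rho as low or lower, and the median rho was 0.02. What gives HRH2 this relation was not tested.

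No relation of CHRM2 with depth was detected, with r = 0.087 (permutation p 0.798) and rho = -0.02 (permutation p 0.974), and r = -0.157 without CON13 and WD6. Within the 5 WD libraries, however, its level was 0 in the shallowest, WD6, and highest in the deeper WD7 and WD9 (rho = 0.80, a description), and within the 5 control libraries rho was -0.10. For HRH3, r was -0.286 (permutation p 0.424) and rho -0.564 (permutation p 0.0958), but r was -0.852 without the same 2 libraries. CHRM3 had r = -0.407 (permutation p 0.215) and rho = -0.152 (permutation p 0.681), and HRH4 had r = -0.345 (permutation p 0.322) and rho = -0.10 (permutation p 0.791). Without these libraries r was 0.485 for CHRM3 and 0.01 for HRH4, so neither sign is settled. The smallest adjusted p of these 4 genes was 0.240, for the rho of HRH3 (permutation test).

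**Figure D2:**
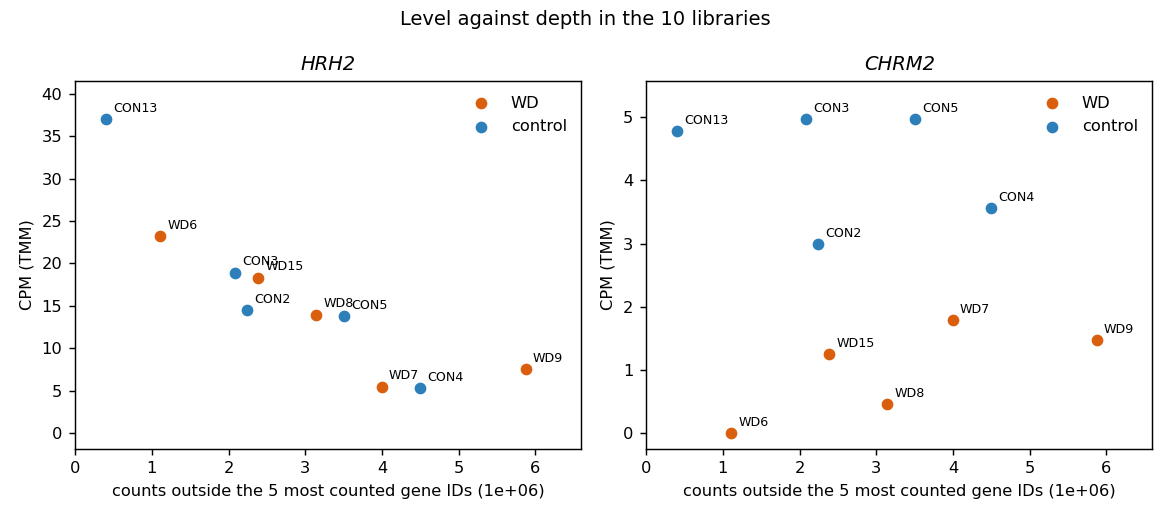
Level (CPM after TMM normalisation) of HRH2 and of CHRM2 against the counts outside the 5 most counted gene IDs (linear axis, in units of 1e+06 counts), 1 point for each of the 10 libraries, control in blue and WD in orange. HRH2 falls from 37.1 CPM in CON13 to between 5.28 and 7.52 CPM in CON4, WD7 and WD9, across both groups. The CHRM2 levels of the groups do not overlap, but at the shallow end they rest on 4 counts in CON13 and 0 in WD6.

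HRH3, a Gi-coupled histamine receptor, was measured at 5.34 CPM in CON2, 6.86 in CON3, 3.21 in CON4, 1.76 in CON5 and 2.39 in CON13. WD libraries had 3.32 CPM in WD6, 1.79 in WD7, 3.07 in WD8, 1.21 in WD9 and 3.33 in WD15. CON2 and CON3 lay above all WD libraries, and the other 3 control libraries lay within or close to the WD range. Means were 3.91 ± 2.13 CPM (SD, n = 5) for the control and 2.54 ± 0.983 CPM (SD, n = 5) for the WD group, from 96 and 71 counts. The log2 fold change was -0.71 (SE 0.49, 95% interval -1.74 to 0.33), with an adjusted p of 0.714 by edgeR, and the exact permutation p was 0.278 (two-sided). The interval holds both a fall and a small rise, and the fold change was -0.42 without CON3.

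HRH4 had the fewest counts, 28 in control and 27 in WD libraries, and was counted in 8 of 10 libraries. Control levels were 1.71 CPM in CON2, 0.473 in CON3, 0.918 in CON4, 0 in CON5 and 11.96 in CON13. WD levels were 0 in WD6, 1.02 CPM in WD7, 1.69 in WD8, 0.605 in WD9 and 0.208 in WD15. CON13, with 10 counts, held 79.4% of the summed control CPM, and the other libraries overlapped. The counts of 0 allow up to 0.439 CPM in CON5 and up to 1.42 CPM in WD6. Means were 3.01 ± 5.04 CPM (SD, n = 5) and 0.705 ± 0.675 CPM (SD, n = 5), and the control mean without CON13 was 0.775 ± 0.726 CPM (SD, n = 4). The log2 fold change in the fit without a filter was -1.50 (SE 1.08, 95% interval -3.72 to 0.73), with an adjusted p of 0.749 by edgeR, and the exact permutation p was 0.516 (two-sided). The difference in log2 CPM was -0.98, and was -0.09 without CON13, -0.34 without WD6 and -1.87 without CON5. At this depth neither a fall nor a rise of HRH4 was detectable.

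Of the 5 receptor genes, 3 passed the filter on low counts (CHRM2, HRH2 and HRH3), and edgeR called 0 of them, against 0.499% of all genes tested. CHRM2 was the 1 with an unadjusted p under 0.05, against 9.31% of all genes tested, and it was paired only through the list ranked by p. All 3 fold changes were below 0, as were 48.1% of those of all genes tested, whose median was 0.02 on the log2 scale.

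The genes whose log2 CPM was most like that of each receptor over the 10 libraries were sought among 3359 tested genes with a symbol. For CHRM2 they were ILK, integrin-linked kinase (Pearson r = 0.980), TTC23L (r = 0.970) and OCA2, a melanosomal transporter (r = 0.961), with r of 0.952, 0.904 and 0.879 without WD6. Their own log2 fold changes were -0.42, -1.03 and -0.90, none of which passed the edgeR test, and TTC23L and OCA2 were paired only through the ranked list. For HRH2 they were ITGA11 (r = 0.957), CYP26B1, an enzyme that breaks down retinoic acid (r = 0.956), and ITGA5 (r = 0.942), where ITGA11 and ITGA5 are integrin alpha subunits. These too were high in shallow libraries, with a rho with depth of -0.818, -0.782 and -0.782. For HRH3 they were PIM3, a serine/threonine kinase (r = 0.927), KMT5C, a histone methyltransferase (r = 0.838), and TYRO3, a receptor tyrosine kinase (r = 0.830), with a rho with depth of -0.770, -0.867 and -0.248. These correlations are descriptions, the points share the depth of each library, and the closest of 3359 genes are close partly by selection.

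Of 5 genes that make, move or break down acetylcholine, 4 had an ID. The 2 that were tested, ACHE and BCHE, break it down, and neither was called by edgeR. ACHE, acetylcholinesterase, ran from 81.7 to 139.3 CPM in control and from 85.8 to 181.8 CPM in WD libraries, with a log2 fold change of 0.41 and an adjusted p of 0.629 by edgeR. BCHE, butyrylcholinesterase, had a log2 fold change of -0.41 with an adjusted p of 0.798 by edgeR, and ran from -0.68 (without WD9) to -0.19 (without CON13) with 1 library left out. CHAT, which synthesises acetylcholine, had 37 counts in control and 37 in WD libraries, and SLC5A7, the choline transporter of cholinergic endings, which was paired only through the ranked list, had 47 and 30. CHAT was at 0 in WD9 and SLC5A7 at 0 in WD6. Of 13 nicotinic receptor subunits, CHRNA1 alone was paired with an ID, through the ranked list, and the other 12 were not analysed here. CHRNA1 had 45 counts in control and 29 in WD libraries, and it did not pass the filter.

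Of the genes on the histamine list, HDC was the sparse one. HDC, the enzyme that makes histamine, had 25 counts in control and 13 in WD libraries, with levels from 0.344 to 2.39 CPM and from 0 to 1.15 CPM, with 0 in WD6 and WD9, and it was not tested. Its transcript is the defining one of histaminergic neurones, whose cell bodies lie outside the SON. Of the 8 genes on the histamine list, 4 had an ID and 3 were tested, and none was called by edgeR. SLC29A4, a membrane transporter of monoamines including histamine, ran from 21.3 to 34.9 CPM in control libraries. In WD libraries it was 31.3 CPM in WD6 and between 7.08 and 14.0 CPM in the other 4, so that only WD6 overlapped the control range. Its log2 fold change was -0.998 (SE 0.302) with an adjusted p of 0.223 by edgeR, and without WD6 it was -1.35 with an adjusted p of 0.00684 by edgeR. SLC29A4 was paired only through the ranked list. The monoamine oxidases MAOA and MAOB had log2 fold changes of 0.29 and -0.50, with adjusted p of 0.686 and 0.697 by edgeR. MAOA was 0.16 without CON3, and MAOB was -0.31 without WD6.

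Among genes of the Gq arm, through which CHRM3 acts, 10 of the 14 described here had an ID and all 10 were tested. None passed the adjusted threshold of edgeR, which 0.499% of all genes tested did. An unadjusted p under 0.05 was found for 6, or for 4 of the 8 not taken from the ranked list alone, against 9.31% of all genes tested. The median log2 fold change of the 10 was 0.20, with 7 above and 3 below 0. Those below 0 were PRKCE, PLCB4 and ITPR1, each with an unadjusted p under 0.05 by edgeR, as had GNAQ, PRKCB and PRKCD above 0. PLCB4, ITPR1 and GNAQ were named after their values were seen, and ITPR1 and GNAQ were paired only through the ranked list. PRKCB, protein kinase C beta, ran from 19.1 to 34.8 CPM in control libraries. In WD libraries it was 81.5 CPM in WD15 and between 30.5 and 40.1 CPM in the other 4. WD15 stood far above all other libraries, and CON2 lay within the range of the remaining WD libraries. Its log2 fold change was 0.70 (SE 0.26), with an adjusted p of 0.367 by edgeR, and was 0.37 without WD15 and 0.42 with RIN as a covariate. The microglial marker CSF1R was also highest in WD15, at 293.2 CPM, and its part in the level of PRKCB was not tested.

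PRKCD, protein kinase C delta, and PLCB2, a phospholipase C, had log2 fold changes of 0.81 and 0.83, with adjusted p of 0.386 and 0.728 by edgeR. With RIN as a covariate they were 0.46 and 0.27, and PLCB2 was 0.44 without WD15, 0.53 without CON5 and 0.53 without WD8. PRKCE, protein kinase C epsilon, was lower in every WD library (27.9 to 50.2 CPM) than in any control library (53.1 to 74.7 CPM), with a log2 fold change of -0.55 and an adjusted p of 0.321 by edgeR. Of the WD libraries WD7 came closest to the control range. PRKCE was named after its values were seen.

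Among genes of the Gi and Gs arms, through which CHRM2, HRH2, HRH3 and HRH4 act, 11 of 20 had an ID and all 11 were tested. edgeR called 0 of them, against 0.499% of all genes tested. An unadjusted p under 0.05 was found for 2, or for 1 of the 9 not taken from the ranked list alone, against 9.31% of all genes tested, and the median log2 fold change was -0.13, with 3 above and 8 below 0. ADCY8, a calcium-stimulated adenylyl cyclase, had 28.0 CPM in CON2, 30.5 in CON3, 42.0 in CON4, 38.2 in CON5 and 28.7 in CON13. In WD libraries it had 51.7 CPM in WD6, 49.5 in WD7, 59.5 in WD8, 52.4 in WD9 and 65.2 in WD15. The groups did not overlap. Its log2 fold change was 0.71 (SE 0.18), with an adjusted p of 0.102 by edgeR and of 0.0113 by DESeq2.

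KCNJ5, a subunit of the G protein-gated potassium channels that Gi-coupled receptors open, had a log2 fold change of 0.99 (SE 0.29) with an adjusted p of 0.200 by edgeR. Its levels ran from 4.73 to 16.7 CPM in control and from 14.2 to 25.2 CPM in WD libraries, and CON13 alone of the control libraries reached the WD range. GNAZ, a Gi-family alpha subunit, had a log2 fold change of -0.40 with an adjusted p of 0.552 by edgeR. KCNJ5 and GNAZ were paired only through the ranked list. Of 13 genes of receptor desensitization, 5 had an ID and were tested, all of them G protein-coupled receptor kinases, and edgeR called 0. The median of their log2 fold changes was 0.13, with GRK6 at 0.42, GRK4 at 0.28 and GRK2 at 0.13, and adjusted p of 0.605, 0.866 and 0.877 by edgeR. With 1 library left out, GRK4 ran from 0.035 (without CON5) to 0.43 (without CON13) and GRK2 from 0.018 (without WD6) to 0.19.

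**Figure D3:**
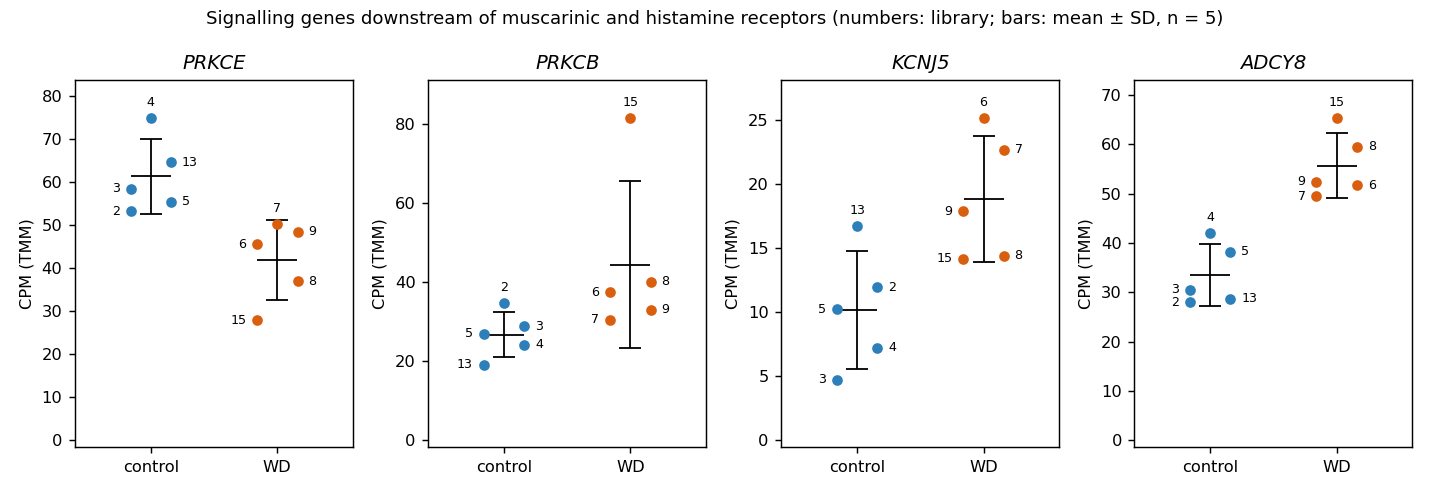
Levels (CPM after TMM normalisation, linear axes) of 4 genes that act downstream of muscarinic and histamine receptors in control (blue) and WD (orange) libraries, points labelled with the library number, black bars the mean and SD (n = 5). PRKCE is lower and ADCY8 is higher in every WD library than in any control library, KCNJ5 overlaps through CON13, and PRKCB overlaps through CON2 and stands at 81.5 CPM in WD15.

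Other receptors for amines were compared for reference. Of 26 genes on this list, 7 had an ID and 5 were tested, of which 2 rose and 0 fell past the edgeR threshold, which 0.499% of all genes tested passed. Their median log2 fold change was 0.71, and 2 of the 5 were paired only through the ranked list. ADRA1A and ADRA1B, the Gq-coupled alpha-1 adrenergic receptors, had log2 fold changes of 0.95 (SE 0.19) and 1.39 (SE 0.30), with adjusted p of 0.0241 and 0.0479 by edgeR. Both calls were unstable to leaving out 1 library, which lost the first in 6 and the second in 9 of 10 fits, with adjusted p by edgeR of up to 0.106 and 0.206. The first was kept without CON13, WD6, WD8 or WD15, and the second without WD8 only. HTR5A, a Gi-coupled serotonin receptor, ran from 3.56 to 5.98 CPM in control and from 1.42 to 2.55 CPM in WD libraries, with a log2 fold change of -1.04 and an adjusted p of 0.404 by edgeR. ADRA1B and HTR5A were paired only through the ranked list.

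**Figure D4:**
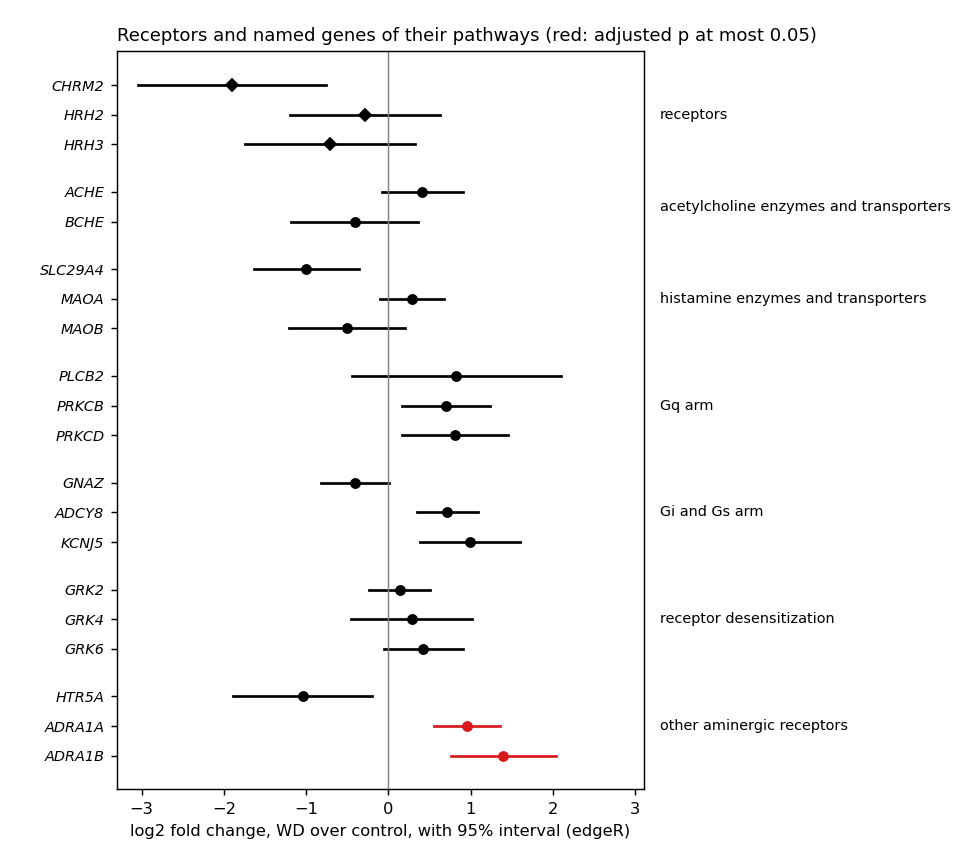
Log2 fold change of WD over control with its 95% interval, from edgeR, for the 3 receptor genes tested (diamonds) and for the named genes of the related lists (circles), in red where the adjusted p was at most 0.05. The interval of CHRM2 runs from -3.04 to -0.76 and those of HRH2 and HRH3 span 0, and the red genes are ADRA1A and ADRA1B.

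Cell type markers were set beside these results. SIM1 and OTP, which are among the transcription factors of the magnocellular lineage, were present in every library. The summed level of the 4 neurone markers with an ID (of 8) ran from 100.5 to 160.1 CPM in control and from 87.3 to 146.4 CPM in WD libraries. All 4 had log2 fold changes below 0, the direction of CHRM2, with SIM1 at -0.04, GAD1 at -0.18, GAD2 at -0.04 and OTP at -0.58, the last with an unadjusted p of 0.0255 and an adjusted p of 0.454 by edgeR. AVP and OXT were not analysed here. Markers of cholinergic neurones, whose cell bodies are known from the neighbouring basal forebrain, were low, with 6 of the 7 described here having an ID. Their summed level was 2.52 to 23.9 CPM in control and 1.38 to 11.9 CPM in WD libraries, and CON13 alone of the control libraries stood above 11.74 CPM. CHAT and SLC5A7 stand on this list too. None of the 6 passed the filter on low counts. The 5 microglial markers with an ID (of 6) had fold changes above 0 and an unadjusted p under 0.05, against 9.31% of all genes tested, and none was called by edgeR. CX3CR1, P2RY12 and AIF1 among them had an ID only through the ranked list, so that their small p was part of their selection, and the other 2 were CSF1R and ITGAM. Their summed level ran from 172.2 to 286.2 CPM in control and from 212.4 to 630.9 CPM in WD libraries, where WD15 alone stood above 346.9 CPM.

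The 2 oligodendrocyte markers with an ID (of 6) summed to 40.0 to 94.8 CPM in control and 31.5 to 79.2 CPM in WD libraries. CON2 alone of the control libraries stood above 52.75 CPM. The 4 vessel markers with an ID (of 6) summed to 124.7 to 187.6 CPM in control and 155.2 to 269.8 CPM in WD libraries, with FLT1 at a log2 fold change of 0.62 and KDR at 0.64 (unadjusted p of 0.0130 and 0.0179 by edgeR), and with PDGFRB at 0.18 and TEK at -0.06 (unadjusted p of 0.334 and 0.799 by edgeR). ALDH1L1, the 1 astrocyte marker with an ID (of 6), ran from 17.6 to 27.0 CPM in control and from 25.5 to 42.2 CPM in WD libraries, with a log2 fold change of 0.55 (unadjusted p of 0.0164 by edgeR), and was paired only through the ranked list. No marker gene of these lists was called by edgeR. The part of these markers in the lower level of CHRM2 and in the other receptor levels was not tested.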

How the data were processed

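Total RNA of 10 SON libraries, 5 from control and 5 from WD camels, was sequenced. The authors used BBDuk for trimming and STAR for alignment to Camdro2, a dromedary assembly, and deposited raw counts of read pairs per gene made with FeatureCounts, without pooling. The handling of strand and of reads shared between genes is not given in the sources used here. A deposited table of normalized values was not used. All values were computed from the counts.

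Symbols came from the study's tables, which paired 4316 of 22444 IDs. One of these, ranked by p, was held for its first 1819 entries, and genes paired only through it are named as such or counted apart. No coordinates are given. The members and lists were chosen with earlier results of these data known. Genes named were the members, from each list those past the threshold and up to 3 tested genes with the largest fold changes, and the 3 genes most like each tested member, with exceptions stated. Results on some genes of the lists are not reported here.

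Groups were compared with edgeR 4.0.16 in R 4.3.3 (quasi-likelihood F test, robust fit, TMM, filterByExpr by group). P-values were adjusted over 14432 tested genes by Benjamini and Hochberg, with 0.05 as the threshold. The biological coefficient of variation was 0.285. Single genes and the ratio were also compared by two-sided exact permutation tests of log2 CPM or log2 ratio with a prior count of 0.5, not adjusted over the members, and correlations by permutation with 100000 resamples (scipy 1.17.1, numpy 2.4.6). P-values measure the spread between camels. The edgeR step was tested on simulated data. Alternatives were DESeq2 1.42.0 and its size factors, library totals with and without the 5 most counted IDs, no filter, a minimum of 10 counts in each library, a non-robust fit, RIN or depth as a covariate, a prior count of 2, both shallow libraries left out, and each library left out in turn. Other scalings for the overlap of levels and the ratio without CON13 and WD15 were added after the data were seen. Intervals at counts of 0 use a floor of 3 counts and cover counting error only.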

Additional observations from a re-analysis of the deposited data

Results flagged for a closer look

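In 5 of 56 checks of a group of 5 libraries, 1 library lay apart from the others by more than Dixon's 95% limit. Each receptor gene was checked on both CPM and log2 CPM, so the checks are not all separate. Chance alone sets a library apart in this way in about 1 of 20 separate groups of normally distributed values, which sparse counts are not. Among the receptors, CON13 was far above the other control libraries for CHRM3, at 11.96 CPM, and for HRH4, also at 11.96 CPM, each from 10 counts in the shallowest library. WD15, with a count of 0, was far below the other WD libraries for CHRM3, at -3.54 on the log2 CPM scale. WD6 was far above the other WD libraries for SLC29A4, at 31.3 CPM. WD15 was far above the other WD libraries for PRKCB, at 81.5 CPM.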

How the results depend on the processing

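The number of genes called was 72 by edgeR, 209 by DESeq2, 10 with library totals only and 155 with depth as a covariate, and ran from 40 to 102 when 1 library was left out (40 without CON3, 42 without CON5). Library totals moved the median log2 fold change of all genes from 0.02 to 0.16. CHRM2 passed the threshold with DESeq2 (-1.91) and under none of the other 18 alternatives, all of which kept its direction, with adjusted p from 0.0323 to 0.9999 over all 19. With 1 library left out its log2 fold change ran from -2.20 to -1.72. HRH2 reversed with depth as a covariate (0.052) and without CON13 (0.0099), within a range of -0.57 to 0.0099 with 1 library left out, and its difference in log2 CPM ran from -0.69 to 0.010 (without CON13). With RIN as a covariate HRH2 was -0.70. HRH3 kept its direction, from -0.91 to -0.42 (without CON3) with 1 library left out and at -0.99 with RIN as a covariate. The difference in the CHRM2 to CHRM3 ratio ran from -2.35 to -0.50 with 1 library left out. Without CON13 and WD15 it was -2.88 (exact permutation p of 0.0286, the smallest possible with 4 libraries in each group). CON13 had the lowest control ratio and WD15 the highest WD ratio. Leaving them out widens the difference by choice, so this p is no evidence for it. Without both shallow libraries GRK2 reversed (-0.0063) and BCHE was -0.073. ADRA1A and ADRA1B were not called with library totals only, and ADRA1B also not without both shallow libraries. ADCY8 was called by DESeq2 and with depth as a covariate, and SLC29A4 without WD6 and without both shallow libraries. The cause of these changes was not tested. CHRM2 and HRH3 had no value under a minimum of 10 counts in every library, which removed them. No paired analysis was possible because the groups share no replicate number. Depth limits CHRM3 and HRH4 most, with 105 and 55 counts in all.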
